A study of Homo sapiens with 4 samples.

Results

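Intron retention events are junction events in which reads that cross from an exon into the adjoining intron are set against reads that join exons across that intron. In the splicing table of A549 cells, 617 events carried the annotation intron-retention, and the 609 with a value in all 4 libraries are described here, out of 3744 such events of all types. They lay in 367 genes. An event was read as retention where the examined junction joined an intron part and an exon part and the background junction joined exons (281 events, 203 genes, 229 introns). It was read as splicing in the reverse case (298 events, 252 genes, 295 introns). The other 30 events, in 25 genes, had neither form. Some introns were read both ways, so that the readings together covered 423 introns.

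A549 is a human lung adenocarcinoma line. The RBM10 knockdown group (2 libraries) came from A549 cells transduced with a lentivirus that encodes 1 shRNA against RBM10 and kept in puromycin at 1 µg/mL for 10 to 14 days, as a stable population. The RBM10 wild-type group (2 libraries) came from A549 cells for which the labels name neither a control construct nor puromycin, so RBM10 loss, transduction and selection cannot be told apart. All libraries share 1 batch, were made from poly-A selected RNA with a stranded kit, and were sequenced in pairs of 100 bp to about 40000000 reads a library, as the labels state. Nothing in the labels says that the libraries of a group came from separate cultures, so p-values measure the spread between libraries, which may be technical.

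Introns are removed from a transcript by the spliceosome, which recognises a GT at the 5′ end of the intron (GC in a minor class), an AG at its 3′ end and a pyrimidine-rich tract before that AG. A retained intron stays in the polyadenylated RNA, where it can hold the transcript in the nucleus, expose a premature stop codon that leads to nonsense-mediated decay, or form part of an untranslated region. RBM10 is an RNA-binding protein of the spliceosome that is mutated in lung adenocarcinoma and is best known for its effect on cassette exons.

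The splice sites of 4 introns are shown because these introns carry the results below, namely the intron with the largest difference (PTP4A2), introns of a gene with 6 edges, all higher in knockdown (AHSA2), the intron that fell most (BCL2L2) and that of a splicing factor (SRSF1). Each line gives 3 exon bases and 12 intron bases at the 5′ splice site, or 24 intron bases and 3 exon bases at the 3′ splice site, and capitals mark the first and last 2 bases of the intron. Sequences are those of GENCODE v29 transcripts that contain the intron, in hg38, 5′ to 3′ on the strand of the gene.
PTP4A2 intron, chr1:31938060-31938118, minus strand, 5′ splice site: gagGCtgggggggag
PTP4A2 intron, 3′ splice site: accgccgccgccgccgccgccgAGgtg
AHSA2 intron I8.1, chr2:61186082-61186445, plus strand, 5′ splice site: ttgGTaagtagactc
AHSA2 intron I8.1, 3′ splice site: gtggaatttcccctctcttttcAGtta
BCL2L2 intron, chr14:23308933-23310972, plus strand, 5′ splice site: ctgGTaactgtaggg
BCL2L2 intron, 3′ splice site: tggagtctgtgcttccttccccAGgta
SRSF1 intron, chr17:58004002-58004922, minus strand, 5′ splice site: atgGTatgactccaa
SRSF1 intron, 3′ splice site: tttttggttttgctggttataaAGgtt

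A pair of short introns is shown whole, since they make visible what a transcript gains when such an intron stays. In the MISP3 intron, which lies between coding exons, the capitals inside the run mark the first stop codon in the reading frame of the upstream exon, which starts at base 28 of the intron. In the AHSA2 intron, the capitals mark its first and last 2 bases.
MISP3 intron I3.1, chr19:14074464-14074705, plus strand: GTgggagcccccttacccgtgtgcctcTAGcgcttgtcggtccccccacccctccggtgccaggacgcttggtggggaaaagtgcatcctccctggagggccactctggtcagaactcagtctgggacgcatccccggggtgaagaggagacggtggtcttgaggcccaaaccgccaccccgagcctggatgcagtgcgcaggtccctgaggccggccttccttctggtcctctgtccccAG
AHSA2 intron I7.1, chr2:61185866-61185979, plus strand: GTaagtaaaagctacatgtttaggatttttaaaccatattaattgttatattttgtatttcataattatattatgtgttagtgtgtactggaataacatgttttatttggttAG

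The values are PSI (percent spliced in), the deposited share of the examined junction among the reads of its set of junctions, given here in percent. The number of reads behind a value is not in the files used here, so depth is unknown and no interval is given for a single value. The table lists only events whose spread over the libraries is 15 points or more. The knockdown libraries had 84.5% and 95.6% of the depth of the deepest one, and the wild-type libraries had 99.0% and 100%. RBM10 itself had 11.6 and 10.9 RPKM in knockdown, against 35.5 and 40.8 RPKM in wild type, with 29.5% of the wild-type mean left. The epithelial keratin gene KRT18 was at 1731 and 1855 RPKM in knockdown and at 890 and 973 RPKM in wild type.

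The largest difference was a switch in PTP4A2, the gene of a protein tyrosine phosphatase of the PRL family. Reads across the 3′ edge of its 59-nucleotide intron had a PSI of 93.4% and 96.1% in the knockdown libraries and were listed at 0% in both wild-type libraries. At the 5′ edge the PSI was 82.3% and 86.1% in the knockdown libraries, against 0% in both wild-type libraries. The groups did not overlap at either edge. The spliced junction of the same intron was at 4.39% and 2.41% in the knockdown libraries and at 91.7% and 93.8% in the wild-type libraries, so that the reading as splicing ran the opposite way. The differences were 94.7, 84.2 and -89.3 points (SE 8.34, 8.37 and 8.34) for the 3′ edge, the 5′ edge and the spliced junction, and all 3 passed limma's test with Benjamini-Hochberg adjustment over the 3744 events (adjusted p = 0.0354 each). In all, 4 events of the whole table passed this test (0.107%), and all 4 were annotated as intron retention. Of these, 3 are the PTP4A2 readings, which share the reads of 1 intron and are not independent. With the variance modelled along mean PSI the adjusted p was 0.0543. It was 0.365 without knockdown library 1, 0.345 without knockdown library 2, 0.436 without wild-type library 1 and 0.437 without wild-type library 2.

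The PTP4A2 intron is an intron of a noncoding transcript and lies inside an exon of an annotated protein-coding transcript of the same gene, so the unspliced form is itself annotated. Its sequence, shown above, starts with GC, ends with AG and holds 86.4% G and C, and 65% of the 20 bases before its AG are pyrimidines. PTP4A2 mRNA was at 25.0 and 23.3 RPKM in knockdown and at 28.4 and 27.1 RPKM in wild type. Its log2 change of -0.20 (SE 0.10) did not pass limma's test of expression (adjusted p = 0.193).

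The event of MAFK was the other one past the test, and it had neither form. MAFK belongs to the small MAF proteins, which bind DNA as partners of NRF2 and other CNC factors. Its examined junction, an edge at chr7:1542298-1542299, had a PSI of 85.0% and 90.4% in the knockdown libraries and was listed at 0% in both wild-type libraries. The background junction started inside the same intron, so the value compares unspliced reads with an inner splice choice rather than with the removal of a whole intron. The difference was 87.7 points (SE 8.44, adjusted p = 0.0354 by limma), and it had the same adjusted p as PTP4A2 under each alternative named above. TMEM184A overlaps this locus on the opposite strand. MAFK mRNA passed the test of expression with a log2 change of 0.61 (limma adjusted p = 0.00224).

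**Figure D1:**
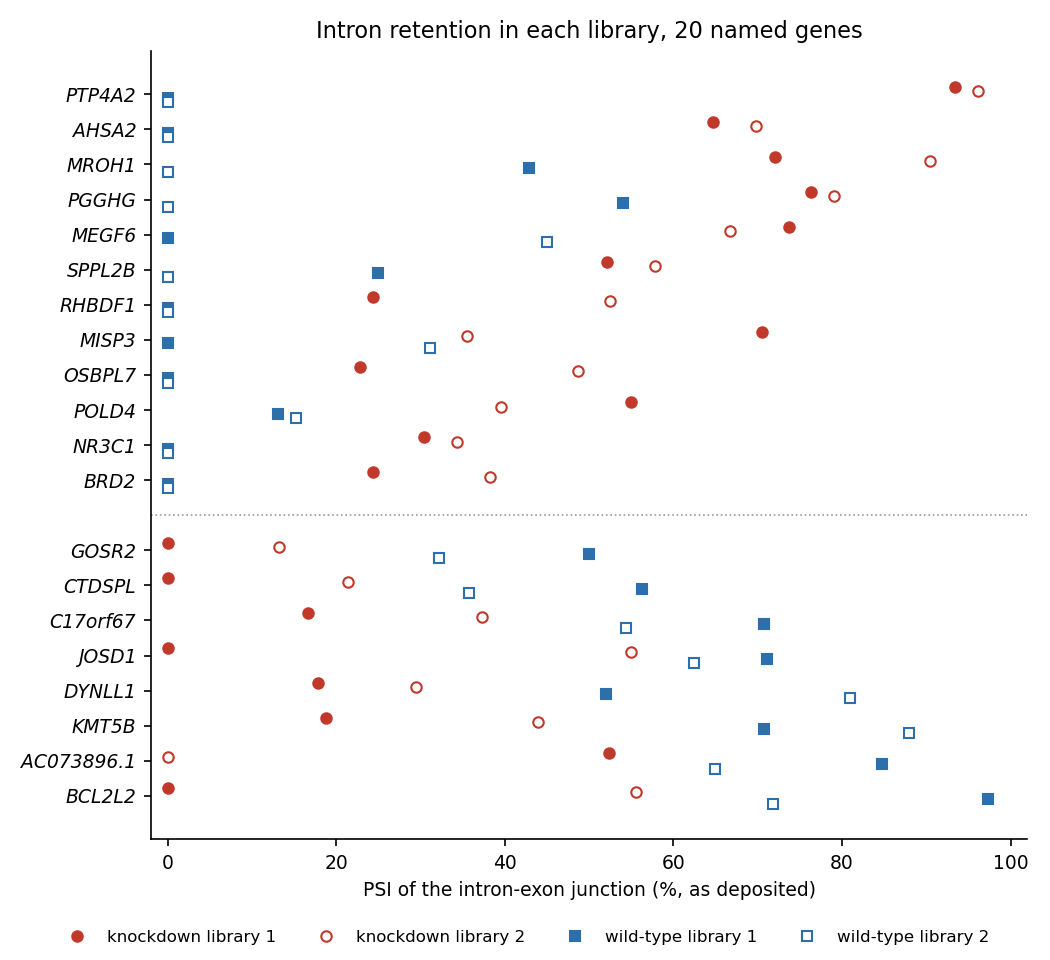
PSI in each of the 4 libraries (x axis, %, as deposited) for the 12 largest increases (upper rows) and the 8 largest decreases (lower rows) among events read as retention with no overlap of the groups, 1 event per gene; red circles are knockdown and blue squares wild-type libraries, each mark 1 library. In PTP4A2, AHSA2, RHBDF1, OSBPL7, NR3C1 and BRD2 both wild-type libraries sit at 0%, while in BCL2L2 knockdown library 1 sits at 0% and knockdown library 2 at 55.6%.

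In AHSA2, a gene related to that of the Hsp90 activator AHSA1, all 6 events read as retention were higher in knockdown. Its intron I8.1 is placed in a noncoding transcript. They mark both edges of 3 neighbouring introns, and all are set against 1 long spliced junction that skips the exons between. They are therefore not independent, and none compares an intron with the removal of that intron alone. The 5′ edge of intron I8.1 had 64.7% and 69.8% in the knockdown libraries, against 0% in both wild-type libraries. Its 3′ edge had 31.9% and 37.4% in the knockdown libraries, against 0% in both wild-type libraries. At both edges the groups stood apart. The difference was 67.2 points at the 5′ edge and 34.6 points at the 3′ edge of this intron. The 5′ edge is an annotated splice site other than an end of the long junction.

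Edges of the other AHSA2 introns had reads in wild type too. The 3′ edge of I6.1 had 56.9% and 65.3% in the knockdown libraries and 19.8% and 25.2% in the wild-type libraries. The 5′ edge of I7.1 had 28.6% and 51.5% in the knockdown libraries and 7.53% and 17.5% in the wild-type libraries. The long spliced junction itself was at 9.58% and 6.47% in the knockdown libraries and at 30.3% and 29.2% in the wild-type libraries, the reverse of the edges. The difference at the 5′ edge of I8.1 was 67.2 points (SE 8.42), with an unadjusted p of 0.00015 and an adjusted p of 0.111, and no AHSA2 event passed after adjustment. All 3 introns lie inside transcripts that GENCODE classes as retained_intron. AHSA2 mRNA was at 9.71 and 9.30 RPKM in knockdown and at 5.33 and 4.77 RPKM in wild type, with a log2 change of 0.80 (SE 0.11, limma adjusted p = 0.000868).

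Other increases were found in genes of varied function. RHBDF1, an inactive rhomboid of the secretory pathway, had 24.4% and 52.5% at the 3′ edge of its intron in the knockdown libraries. At the 5′ edge it had 38.0% and 36.4% in the knockdown libraries. Both wild-type libraries were at 0% at both RHBDF1 edges. OSBPL7, of the oxysterol-binding protein family, had 22.9% and 48.6% at the 3′ edge in the knockdown libraries, against 0% in both wild-type libraries. Its spliced junction was at 65.1% and 33.9% in the knockdown libraries and at 100% in both wild-type libraries. SPPL2B, an intramembrane protease, had 52.1% and 57.8% in the knockdown libraries and 25.0% and 0% in the wild-type libraries. The groups did not overlap in any of these. The 3′ edge of RHBDF1 and the examined edges of OSBPL7 and SPPL2B are annotated transcript starts or ends rather than splice sites. None passed the adjusted test, and the adjusted p was 0.259 at each of these edges.

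PGGHG, a glucosidase that acts on the sugar chains of collagen, had 76.3% and 79.1% at the 5′ edge in the knockdown libraries and 54.0% and 0% in the wild-type libraries. MROH1 had 72.0% and 90.5% in the knockdown libraries and 42.9% and 0% in the wild-type libraries. MEGF6, a protein with EGF-like repeats, had 73.7% and 66.7% in the knockdown libraries and 0% and 45.0% in the wild-type libraries. MEGF6 was at 0.869 and 0.924 RPKM in knockdown and at 0.613 and 0.832 RPKM in wild type, too low for the test of expression. In each of these 3 genes 1 wild-type library at 0% made much of the difference, and which wild-type library it was varied. POLD4, the smallest subunit of DNA polymerase delta, had 55.0% and 39.5% in the knockdown libraries and 13.2% and 15.2% in the wild-type libraries, with no library at 0%.

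MISP3 had 70.5% and 35.5% at the 5′ edge of intron I3.1 in the knockdown libraries and 0% and 31.1% in the wild-type libraries. The spliced junction of its other intron, I2.1, was at 58.5% and 55.9% in the knockdown libraries. It was at 95.5% and 100% in the wild-type libraries, so both readings pointed toward retention. In I3.1, knockdown library 2 and wild-type library 2 lay close, at 35.5% and 31.1%. Neither event passed the adjusted test (limma adjusted p = 0.269 for I3.1 and 0.259 for I2.1). Both introns lie between coding exons and inside a transcript classed as retained_intron. MISP3 mRNA was at 2.68 and 3.38 RPKM in knockdown and at 0.739 and 1.38 RPKM in wild type, with a log2 change of 0.98 (SE 0.16, limma adjusted p = 0.00226).

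For 2 regulators of transcription the examined edge was set against a long junction that spans several exons. NR3C1, the glucocorticoid receptor gene, had 30.4% and 34.4% in the knockdown libraries, against 0% in both wild-type libraries. BRD2, a BET bromodomain protein, had 24.4% and 38.2% in the knockdown libraries, against 0% in both wild-type libraries. The NR3C1 edge is an annotated transcript start or end, not a splice site, and the BRD2 edge is a splice site of another transcript. Neither event passed the adjusted test (adjusted p = 0.259 each), nor did the mRNA of either gene (adjusted p = 0.919 and 0.112).

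The largest decrease was in BCL2L2, the gene of the anti-apoptotic protein BCL-W. The 3′ edge of its 2040-nucleotide intron had 0% and 55.6% in the knockdown libraries and 97.4% and 71.9% in the wild-type libraries. The 5′ edge had 0% and 44.8% in the knockdown libraries and 92.3% and 52.6% in the wild-type libraries. The BCL2L2 intron lies inside an exon of an annotated protein-coding transcript of the same gene, so the unspliced form is itself annotated. The knockdown libraries lay nearly as far from each other as the group means did, and BCL2L2 was at 0.863 and 1.26 RPKM in knockdown and at 1.49 and 1.16 RPKM in wild type, a low level.

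KMT5B, a histone H4 lysine methyltransferase, had 18.8% and 43.9% at a 3′ edge in the knockdown libraries and 70.7% and 88.0% in the wild-type libraries. DYNLL1, a dynein light chain, had 17.9% and 29.4% in the knockdown libraries and 52.0% and 81.0% in the wild-type libraries. GOSR2, a SNARE of the Golgi, had 0% and 13.2% in the knockdown libraries and 50.0% and 32.3% in the wild-type libraries. In these genes the groups stood apart with no shared values. The DYNLL1 and GOSR2 edges are annotated splice sites other than the ends of their spliced junctions. The KMT5B and GOSR2 introns lie inside exons of annotated protein-coding transcripts of these genes, so their unspliced forms are annotated too. The GOSR2 spliced junction was at 71.9% and 47.5% in the knockdown libraries and at 15.2% and 16.1% in the wild-type libraries, the reverse of its edge. The other 4 of the 8 largest decreases were in JOSD1, CTDSPL, C17orf67 and AC073896.1. JOSD1, a deubiquitinase gene, had 0% and 55.0% in the knockdown libraries and 71.1% and 62.5% in the wild-type libraries. CTDSPL, a phosphatase gene, had 0% and 21.4% in the knockdown libraries and 56.2% and 35.7% in the wild-type libraries. AC073896.1 had 52.4% and 0% in the knockdown libraries and 84.7% and 65.0% in the wild-type libraries. Each of these 3 genes had 1 knockdown library at 0%. The JOSD1 and CTDSPL edges are annotated transcript starts or ends, and that of AC073896.1 is no annotated exon edge. As a PSI fraction, the difference was -0.118 for JOSD1 without knockdown library 1, against -0.393 with all libraries, and -0.225 for AC073896.1 without knockdown library 2, against -0.487. C17orf67 had 16.7% and 37.3% in the knockdown libraries and 70.7% and 54.3% in the wild-type libraries. DYNLL1 was the one gene of these 8 whose mRNA passed the test as lower, with a log2 change of -0.44 (limma adjusted p = 0.011), and C17orf67 mRNA passed as higher with 0.39 (adjusted p = 0.0328).

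Events read as splicing gave further genes. ATF5, a transcription factor of the stress response, had a spliced junction at 100% in both knockdown libraries, against 16.7% and 57.5% in the wild-type libraries. MED1, a subunit of the Mediator complex, had 52.2% and 76.5% in the knockdown libraries and 11.6% and 6.25% in the wild-type libraries. SPAG4, a SUN-domain protein, had 100% and 51.6% in the knockdown libraries and 16.7% and 25.0% in the wild-type libraries. The edge set against the ATF5 junction is an annotated transcript start or end, and that of MED1 is another annotated splice site. The junctions of all these genes were used more in knockdown. The same held for AL353194.1 and MAMDC4, both at 100% in each knockdown library, with differences of 57.6 and 43.1 points.

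In the opposite direction, ASIC3, an acid-sensing ion channel gene, had a spliced junction at 46.7% and 50.0% in the knockdown libraries and at 100% in both wild-type libraries. ZNF629, a zinc finger gene, had 48.1% and 54.8% in the knockdown libraries, against 100% in both wild-type libraries. ZNF629 was at 0.330 and 0.340 RPKM in knockdown and at 0.249 and 0.311 RPKM in wild type, too low for the test of expression. The groups did not overlap in either gene. The unadjusted p was 0.000649 for ASIC3 and 0.00101 for ZNF629, and neither passed after adjustment (limma adjusted p = 0.194 and 0.209).

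Across the 281 events read as retention, the mean PSI was 30.3% and 35.2% in the knockdown libraries and 30.6% and 28.0% in the wild-type libraries. Only knockdown library 2 stood above the others. The median PSI was 29.3% and 33.3% in the knockdown libraries and 26.2% and 25.6% in the wild-type libraries. Across the 298 events read as splicing, the mean was 69.8% and 66.3% in the knockdown libraries and 68.5% and 70.9% in the wild-type libraries, where knockdown library 2 was the lowest. The median difference was 3.15 points for retention and -0.89 points for splicing, against 0.08 points over all events of the table.

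Both knockdown libraries lay above both wild-type libraries in 98 events read as retention (34.9%) and below them in 54 (19.2%), where all events of the table gave 27.9% above and 26.3% below. Among events read as splicing, 57 lay above (19.1%) and 75 below (25.2%). Counted over events, 173 moved toward retention and 111 away from it, or 60.9% of those without overlap. Many introns enter this count more than once, since 101 were read both ways and 51 had both edges set against 1 junction. With 1 event per intron and reading, 76 retention events were higher and 44 lower. The 25.2% of splicing events that lay below did not exceed the 26.3% over all events. The share without overlap in either direction, 54.1% of retention events, was near the background of 54.2%. An unadjusted p under 0.05 with a difference of 10 points or more was reached by 40 higher retention events (14.2%) and 25 lower ones (8.90%), against 9.27% and 9.13% over all events. For splicing the counts were 25 higher (8.39%) and 33 lower (11.1%).

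These unadjusted counts depended on single libraries. The shares over all events with a library left out are not given here. A loss of power over the whole table therefore cannot be told from a change of these events. Higher and lower retention events numbered 27 and 8 without knockdown library 1, 16 and 12 without knockdown library 2, 22 and 8 without wild-type library 1, and 15 and 12 without wild-type library 2. The excess of higher over lower retention events ranged in this way from 27 against 8 to 15 against 12. Higher and lower splicing events numbered 22 and 19 without knockdown library 1, 26 and 21 without knockdown library 2, 13 and 31 without wild-type library 1, and 14 and 26 without wild-type library 2, so the excess of lower splicing events was turned round without either knockdown library.

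**Figure D2:**
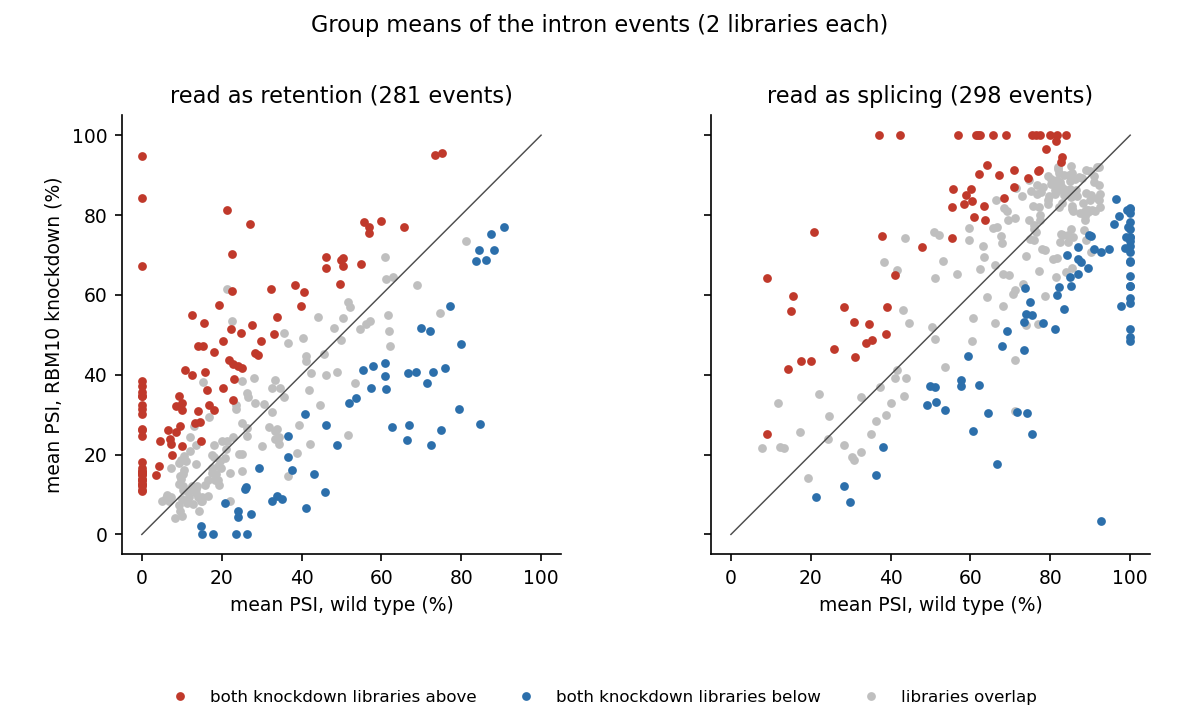
Mean PSI of the 2 knockdown libraries (y axis, %) against that of the 2 wild-type libraries (x axis, %), each point 1 event, for events read as retention (left) and as splicing (right). Red points lie above and blue points below in both knockdown libraries, 98 and 54 on the left and 57 and 75 on the right, and a column of red points at 0% wild type is seen on the left.

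Values of 0 were common among retention events. The number listed at 0% was 51 and 30 in the knockdown libraries and 64 and 70 in the wild-type libraries, so fewer in both knockdown libraries. Depth differed too, at 84.5% and 95.6% of the deepest library in knockdown and at 99.0% and 100% in wild type, and its part was not tested. In 30 events of 24 genes both wild-type libraries were at 0% and both knockdown libraries above it, and in 4 events of 4 genes the reverse held. Over the whole table these patterns took 0.908% and 0.107% of events. All 34 events with the first pattern were members, the other 4 among them having neither form. Among the 3135 events of other types, 8 and 2 were at 0% in the knockdown libraries and 3 and 8 in the wild-type libraries. None of these had either pattern, and no event read as splicing was at 0% in any library. The shares over the whole table thus hold only members and are no independent background for them. A value of 0% rests on an unknown number of reads.

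The 24 genes included several already named and others with lower PSI. ITPR3, an inositol trisphosphate receptor of the endoplasmic reticulum, had 20.0% and 13.1% at a 5′ edge in the knockdown libraries, against 0% in both wild-type libraries. AKT1, a kinase of insulin and growth factor signalling, had 17.0% and 14.4% in the knockdown libraries, against 0% in both wild-type libraries. PTPRS, a receptor tyrosine phosphatase, had 17.6% and 9.41% in the knockdown libraries, against 0% in both wild-type libraries. The PTPRS edge is no annotated exon edge. NBEAL2, a BEACH-domain protein of granule formation, had 22.4% and 27.0% in the knockdown libraries, against 0% in both wild-type libraries, and its spliced junction was at 71.4% and 65.0% in the knockdown libraries and at 100% in both wild-type libraries. The reverse pattern was seen in SRR, the serine racemase gene, with 0% in both knockdown libraries, against 18.2% and 34.4% in the wild-type libraries, and in MTG2, HEXIM2 and ARRDC3. AKT1, ITPR3, SRR, MTG2, HEXIM2 and ARRDC3 were chosen for naming after their values were seen.

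With the 143 retention events above 0% in all 4 libraries alone, 56 lay above and 37 below without overlap, and 17 and 14 passed the unadjusted test. The shares over all events restricted in the same way are not given here. The counterpart of a retention at 0% is a splicing at 100%, which 63 and 50 splicing events showed in the knockdown libraries and 67 and 70 in the wild-type libraries. Both wild-type libraries alone were at 100% in 20 splicing events and both knockdown libraries alone in 14.

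**Figure D3:**
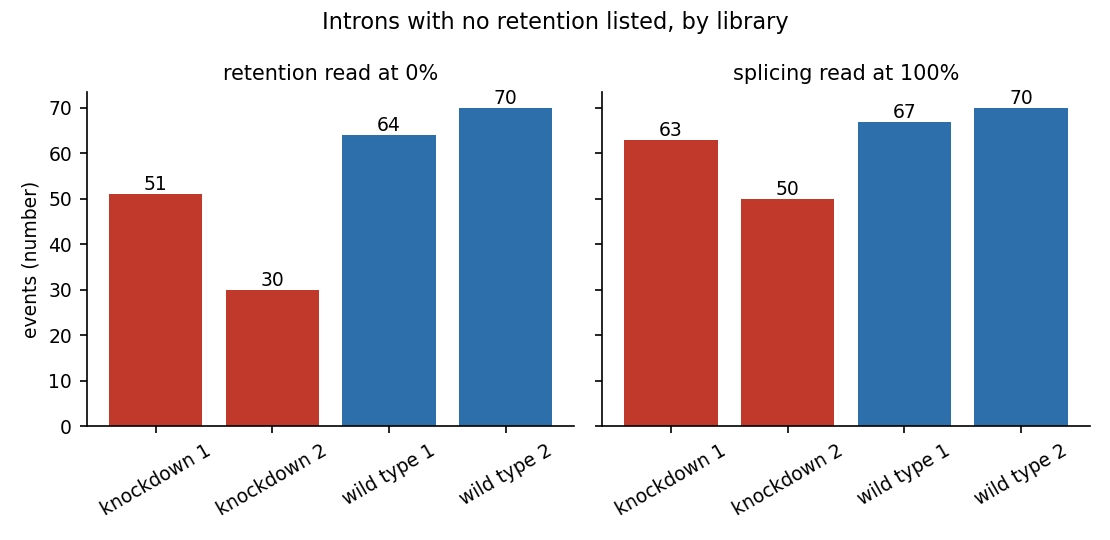
Number of events (y axis) read as retention at 0% (left) and as splicing at 100% (right) in each library; red bars are knockdown and blue bars wild-type libraries. On the left the bars stand at 51 and 30 in knockdown and at 64 and 70 in wild type, and on the right the knockdown bars are 63 and 50.

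Both edges of 51 introns were set against the same spliced junction, which allows a comparison within the intron. Both edges were higher in knockdown in 32 introns and lower in 14, and had unlike signs in 5. Across the 51 introns Pearson's r between the differences at the 2 edges was 0.93 and Spearman's rho 0.91, with a median gap of 5.22 points. The edges share their libraries and the reads of the spliced junction, so this is a description of the table. In 29 library values both edges were at 0%, and in 1 value 1 edge was. In 101 introns read both as retention and as splicing, the 2 readings had unlike signs in 92 and like signs in 9. The readings exchange the examined and background junctions, so unlike signs are largely built into the PSI.

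**Figure D4:**
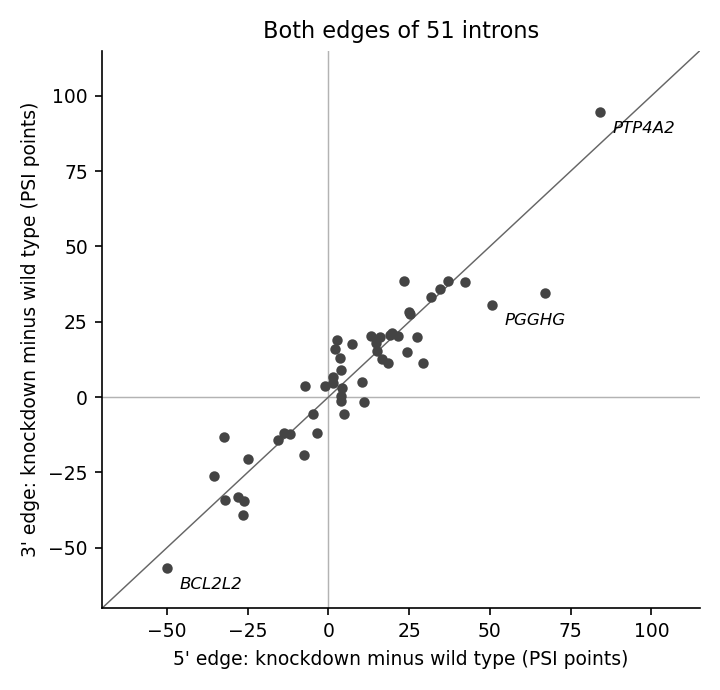
Difference in PSI between knockdown and wild type at the 3′ edge (y axis, points) against that at the 5′ edge (x axis, points), each point 1 of 51 introns, with the line of equal values. PTP4A2 lies at the upper right and BCL2L2 at the lower left, and 46 introns had both edges on the same side of 0.

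Many examined edges were not the ends of the intron that the spliced junction removes. Of the 281 retention events, 157 had their edge at an end of their own spliced junction, 37 at another annotated splice site, 70 at the start or end of an annotated transcript and 17 at no annotated exon edge. Without overlap, 53 of the 157 were higher and 33 lower, against 26 and 11 of the 70 at transcript starts or ends and 14 and 7 of the 37. More events were thus higher than lower in these 3 classes, where all events of the table gave 27.9% higher and 26.3% lower. By the unadjusted test, 20 of the 157 were higher and 17 lower, so these counts lay close together. The same test gave 11 higher and 3 lower of the 70, and 7 higher and 4 lower of the 37. Whether the classes differ from the whole table was not tested. At a transcript start or end, as in NR3C1, a read across the edge need not stem from a retained intron.

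The introns, as their ends were assigned, were short. Where an end was not given by the events, it was taken from the shortest matching spliced junction or annotated intron. That choice favours short lengths, so the comparison with all annotated introns is in part built in. The 311 with both ends given or assigned had a median length of 322 nucleotides (quartiles 174.5 and 618.5). The 59 nucleotides of PTP4A2 were the shortest. The 275 that GENCODE v29 annotates had a median of 325 nucleotides, against 749 over all 8518 annotated introns of the same genes. Among them, 22.2% lay inside an exon of another transcript of the gene, against 14.6% of all introns of these genes, and 9.45% lay inside a transcript classed as retained_intron, against 9.87%. Of the introns placed, 176 lay between coding exons, 23 in a 5′ UTR, 18 in a 3′ UTR and 58 in noncoding transcripts. No annotated small RNA gene lay inside any of them. Exons of another gene overlapped 6 introns on the same strand and 10 on the opposite strand, and for these, reads of the other gene cannot be told apart where counting ignored strand, which the sources used here do not state.

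With ends assigned in the same way, the median length was 337 nucleotides for the 62 introns with higher retention. It was 456 for the 35 with lower retention and 325 for the 77 with overlap. Noncoding transcripts held 16 of the higher, 1 of the lower and 21 of the overlapping introns, while introns between coding exons numbered 23, 17 and 32. In the same order, 5′ UTRs held 3, 7 and 6 introns and 3′ UTRs 2, 4 and 6. Sequence could be read for 77 introns that an annotated transcript contains, of which 66 began with GT, 2 with GC, and 72 ended with AG. In those read as retention the median G and C content was 53.5% for 17 higher introns, 49.8% for 16 lower ones and 50.6% for 18 with overlap, and the median share of pyrimidines before the AG was 75%, 70% and 72.5%. Of 32 introns between coding exons that could be translated from the upstream exon, 28 held an in-frame stop codon, as the MISP3 intron shown above does, and 50 of all 176 had a length of whole codons.

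Host genes of the events were compared by their RPKM. Of 365 host genes in the expression table, 347 were tested, and 84 were higher in knockdown (24.2%) and 14 lower (4.03%) by limma with Benjamini-Hochberg adjusted p under 0.05, against 15.3% and 7.03% of all 10182 tested genes. The median log2 change was 0.13 for host genes and 0.02 for all tested genes. Quantile normalization moved the median of all tested genes to -0.04 and gave 64 higher and 21 lower host genes, against 11.9% and 9.97% of all genes. Host genes had a median of 5.05 RPKM, close to the 5.62 RPKM of all tested genes. Without knockdown library 1 the counts were 55 and 9, against 13.0% and 3.997% of all genes, and without knockdown library 2 they were 57 and 9, against 12.1% and 4.28%.

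Of 73 genes with higher retention without overlap, 27 were higher, 2 lower, 43 did not pass and 1 was not tested. Of 44 genes with lower retention, 7 were higher, 1 lower, 35 did not pass and 1 was not tested. Over all tested genes, 15.3% were higher and 7.03% lower. By sign alone, the host log2 change was above 0 in 50 and below 0 in 22 genes with higher retention. With lower retention it was above 0 in 30 and below 0 in 13, so most host changes were above 0 in both directions of retention. Of 69 genes with a less used spliced junction, 24 were higher and 1 lower, and of 57 with a more used one, 10 were higher and 4 lower. Across events, the difference in PSI and the log2 change of the host gene had Pearson's r of 0.23 and Spearman's rho of 0.20 for retention (n = 276 events) and -0.20 and -0.17 for splicing (n = 283). Events of 1 gene share its RPKM, and both values come from the same libraries. Whether the change in RPKM and that in retention are linked was not tested.

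The host genes with the largest increase past the test were COL7A1 (anchoring fibril collagen), the chemokine gene CXCL3, NOXA1 (an activator of NADPH oxidase), PTPRS, NBEAL2 and MISP3, with log2 changes of 1.19, 1.13, 1.12, 1.05, 1.01 and 0.98. COL7A1 had a spliced junction at 36.5% and 40.9% in the knockdown libraries and at 58.2% and 57.2% in the wild-type libraries. CXCL3 had 74.1% and 76.2% in the knockdown libraries and 65.1% and 100% in the wild-type libraries, so the groups overlapped. The largest decreases were in MGAT4B (a Golgi glycosyltransferase), AC006486.1, GPAT3 (an enzyme of triglyceride synthesis), ATF5, DMAP1 and MPP3, with log2 changes of -1.14, -1.04, -0.82, -0.73, -0.71 and -0.64. MPP3, a membrane scaffold protein, had a spliced junction at 100% in both knockdown libraries, against 64.7% and 59.1% in the wild-type libraries. In MGAT4B the spliced junction was at 55.5% and 46.2% in the knockdown libraries and at 67.7% and 70.6% in the wild-type libraries. This was the opposite direction to ATF5 and MPP3. In COL7A1, MGAT4B, ATF5 and MPP3 the edge set against the junction is an annotated transcript start or end.

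**Figure D5:**
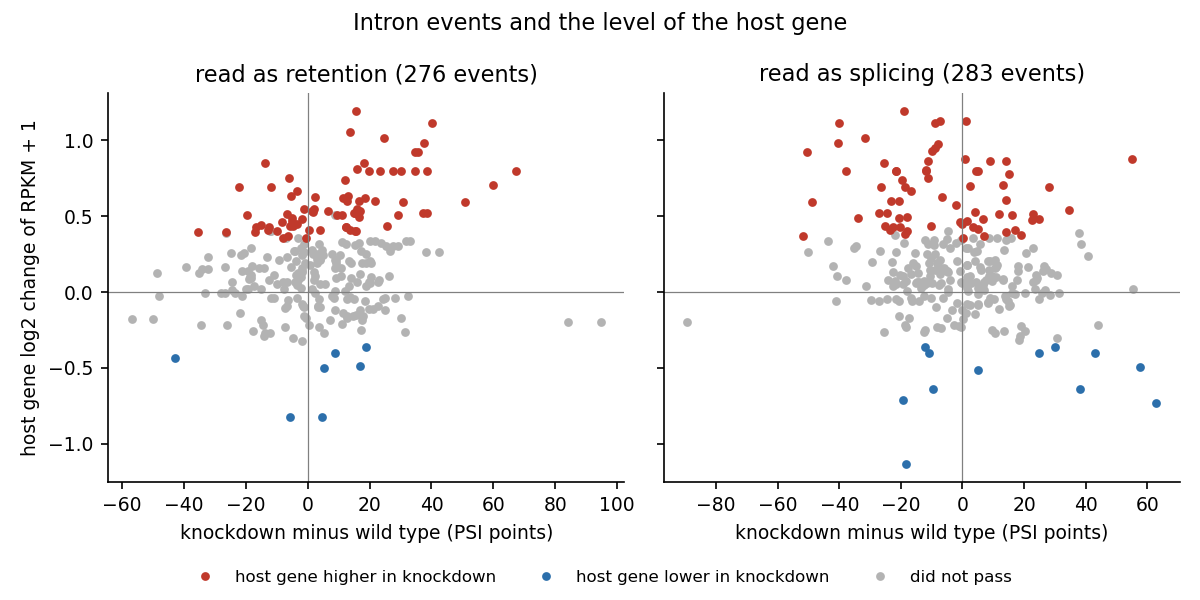
Log2 change of the host gene (y axis, on the scale of RPKM + 1) against the difference in PSI between knockdown and wild type (x axis, points), each point 1 event, for 276 events read as retention (left) and 283 read as splicing (right). Red points are events in host genes higher in knockdown and blue points in host genes lower in knockdown, and the PTP4A2 points at the right and left ends lie near a log2 change of 0.

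Splicing regulators were few among the hosts. SRSF1, an SR protein that regulates its own mRNA through introns near its 3′ end, was the one SR protein with events. The 3′ edge of its intron had 10.8% and 13.0% in the knockdown libraries and 22.6% and 29.3% in the wild-type libraries. The spliced junction was at 80.7% and 78.3% in the knockdown libraries and at 64.3% and 57.2% in the wild-type libraries. Both readings, which share their reads, gave less retention in knockdown without overlap of the groups. Neither passed limma's adjusted test (differences -14.1 and 18.7 points, SE 8.53 and 8.56, adjusted p = 0.338 and 0.28). SRSF1 mRNA had a log2 change of -0.29 (adjusted p = 0.0622). The SRSF1 intron lies inside an exon of an annotated protein-coding transcript of the gene. No event fell in the lists of CDC-like and SR protein kinases, RBM-named proteins or nonsense-mediated decay factors. In CELF1, DHX8 and PRPF40B, which act in splicing, the libraries of the groups overlapped.

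In the list of DEAD and DEAH box helicases, 2 of 3 retention events were higher without overlap and 4 of 5 splicing events lower, with median differences of 12.2 and -18.1 points, against 3.15 and -0.89 points over all members of these readings. DDX12P gave 1 of the higher retention events and 3 of the lower splicing events, and the other 2 events were readings of 1 region of DDX17. Over all events of the table, 27.9% were higher and 26.3% lower without overlap, and with so few genes nothing is read from the counts of this and the following lists. DDX17, an RNA helicase, had a retention edge at 26.5% and 18.0% in the knockdown libraries and at 11.2% and 8.92% in the wild-type libraries. DDX12P is a near-identical copy of DDX11, and its junction reads are uncertain for that reason. Among tyrosine phosphatases, 3 of 5 retention events were higher, with a median of 13.5 points. Of these, 2 are the PTP4A2 edges already given and 1 is that of PTPRS. Among genes named SLC or TMEM, 3 of 7 retention events were lower, none higher, and 4 of 10 splicing events were higher, with medians of -6.15 and 7.75 points. TMEM80 and SLC48A1 each gave 1 of the 3 and 1 of the 4, from both readings of 1 intron. The list was made by prefix and also took in TMEM147-AS1, a noncoding antisense RNA, with 1 retention and 2 splicing events, of which 1 splicing event was higher. SLC26A6, an anion exchanger, had a spliced junction at 100% in both knockdown libraries, against 65.3% and 65.9% in the wild-type libraries. SLC39A13, a zinc transporter, had a retention edge at 53.2% and 50.0% in the knockdown libraries and at 70.4% and 69.4% in the wild-type libraries. The SLC39A13 intron lies inside an exon of an annotated protein-coding transcript of the gene.

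Genes with the prefixes of CDK, MAP and PIP kinases, among them CDK5RAP1, which is not a kinase and gave 1 splicing event, had 1 of 5 retention events higher and, of 8 splicing events, 1 higher and 2 lower, with medians of -3.32 and -3.40 points. PI4KA, a phosphatidylinositol kinase, had a retention edge at 20.0% and 26.8% in the knockdown libraries and at 0% and 9.09% in the wild-type libraries. Zinc finger genes had 1 of 3 retention events higher, 1 lower, and 2 of 5 splicing events lower, with medians of -11.8 and -18.9 points. Of 4 retention events in genes of ubiquitin enzymes, 1 was higher, that of the ubiquitin ligase gene TRIM41. It had 76.9% and 79.4% in the knockdown libraries and 53.2% and 58.0% in the wild-type libraries. The TRIM41 intron lies inside exons of annotated protein-coding and retained_intron transcripts. Noncoding host genes had 1 of 7 retention events lower and 1 of 7 splicing events higher, with medians of -1.06 and 8.27 points. The lower one was in MIR4435-2HG, with 19.7% and 12.5% in the knockdown libraries and 38.6% and 36.6% in the wild-type libraries. Its edge is an annotated transcript start or end. In the lists of translation factors, transcription and 3′ end machinery and mitochondrial proteins, 1, 1 and 0 retention events were present. The one in EIF4G3, a scaffold of translation initiation, had a difference of -19.0 points, and the one in TAF1C, a factor of RNA polymerase I, had 16.8 points. Apart from PTP4A2 and MAFK, no member of any list passed the adjusted test.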

How the data were processed

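A549 RNA was sequenced in 2 RBM10 knockdown and 2 wild-type libraries. Per the submitters' processing notes, STAR 2.6.1 and hg38 were used. No source used here names the counter, the splicing caller, the annotation or the use of strand. The deposited PSI are fractions, per the file headers, and are shown here as percent. They also deposited a gene table whose values have the form of RPKM, a unit inferred from the values. PSI, and log2(RPKM + 1) of genes with a group mean of 1 or more, were compared with limma 3.58.1 in R 4.3.3 (two-sided, no covariate, whole table, Benjamini-Hochberg). An event passed at adjusted p under 0.05 and 10 points or more. The PSI test and the expression test were first tested on simulated data. Relative depth came from the step between low RPKM values. Introns were placed on GENCODE v29 (hg38) and sequences read from its transcripts.

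Named were members past the adjusted test, the 12 largest increases and 8 largest decreases among retention events without overlap (1 per gene), 6 and 6 among splicing events, up to 8 members at 0 in 1 group, the 6 and 6 host genes with the largest changes, and up to 3 members of each list. Members and lists were chosen with earlier results of these data known. Alternatives covered the PSI scale, variance trend, difference threshold, event set, replicate block, pseudocount, filter, normalization and each library left out. Counts restricted to edges of the own spliced junction or to events above 0, and a block with crossed replicate numbers, were added after the data were seen.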

Additional observations from a re-analysis of the deposited data

How the results depend on the processing

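Depth behind a PSI is unknown, so precision rests on 2 libraries a group. After adjustment, 4 events passed, the same number on the logit scale, with a difference of 20 points or in a fit of intron retention events alone, while 0 passed with a variance trend or without any 1 library. The replicate numbers share no stated source, and the deviations of same-numbered libraries had a correlation of -0.04 in PSI and -0.44 in log2(RPKM + 1). With a replicate block 29 intron retention events passed, and the block left the other counts within 1.5 times. The share of all events that passed with the block is not given here. Crossed numbers, added after the data were seen, gave 121 higher and 37 lower host genes, where 24.2% and 17.0% of all genes were called.

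Unadjusted counts (40 and 25 for higher and lower retention, 25 and 33 for splicing) ranged over the libraries left out from 15 to 27, 8 to 12, 13 to 26 and 19 to 31. Lower retention events numbered 15 in a fit of intron retention events alone. With edges of the own spliced junction alone, there were 20 higher and 17 lower retention events and 15 higher and 22 lower splicing events, and with events above 0 in all 4 libraries 17 higher and 14 lower retention events. Without overlap and with 20 points or more there were 46 higher and 28 lower retention events and 35 higher and 48 lower splicing events. Without overlap at any size, the same 4 counts were 53, 33, 33 and 48 with own edges alone, and higher retention events numbered 56 with events above 0. Moves toward retention outnumbered the opposite under both readings with 20 points or more and with own edges alone. Shares over all events under these settings are not given here, so these counts are not set against the whole table.

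Host genes (84 higher, 14 lower) numbered 41 and 8 with no filter (7.18% and 1.89% of all genes) and 55 to 76 and 9 to 15 over the libraries left out (12.1% to 13.1% and 3.997% to 6.38%). Counts of genes by retention and host direction, 50 up and 22 down with higher retention and 30 and 13 with lower retention, became 27, 2, 7 and 1 with host genes past the test alone. Of the named members, those whose sign turned when 1 library was left out had overlapping groups. This holds by construction, since without overlap no single library left out can turn the sign. As PSI fractions over the libraries left out, CXCL3 ranged from -0.248 to 0.10, GPAT3 from -0.160 to 0.045, DMAP1 from -0.411 to 0.0233, CELF1 from -0.0509 to 0.116, PRPF40B from -0.0806 to 0.086, MRPL45P2 from -0.150 to 0.0473 and C1RL-AS1 from -0.615 to 0.227. The cause of these changes was not tested.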

Other observations

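Events of neither form held some wide differences. SRGAP2 had 1 junction at 51.7% and 34.4% and another at 58.8% and 27.3% in the knockdown libraries. Both SRGAP2 junctions were at 0% in both wild-type libraries, and they share 1 background junction, so they are not independent. RABL2A, whose reads may be shared with its close copy RABL2B, had 25.2% and 14.6% in the knockdown libraries, against 0% in both wild-type libraries. GON4L, a transcriptional regulator, had a junction that joins an intron part to an exon at 100% in both knockdown libraries, against 68.0% and 60.5% in the wild-type libraries. In RCC1, the nucleotide exchange factor of Ran, a junction inside an intron had 6.56% and 0% in the knockdown libraries and 24.0% and 25.4% in the wild-type libraries. None of these passed the adjusted test. RABL2A, GON4L and RCC1 were chosen for naming after their values were seen, while SRGAP2 falls under the naming rule for members at 0 in 1 group.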
